A study of Mus musculus with 34 samples.

Results

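The neurotrophin group was made up of 6 genes of a table of 54532: the ligand genes *Bdnf* and *Ntf3*, the Trk receptor genes *Ntrk2* and *Ntrk3*, the p75 receptor gene *Ngfr*, and *Sort1*, which encodes sortilin. They were found by their GENCODE symbols. Bulk RNA sequencing was done on dorsal hippocampus from adult male C57BL/6J mice, with 4 libraries from homecage mice and 4 from mice trained in spatial object recognition (SOR) and euthanized 1 h later. In SOR, a mouse explores an arena that holds several objects and learns where they stand. The homecage mice were not trained. The methods state that homecage mice were taken at the same time, in a passage on spatial, single-nucleus and in situ samples that does not name bulk. They give handling and single housing as steps before training, without naming the bulk homecage mice. The labels give no transgene and no drug for these mice. Each library is 1 replicate, and p-values measure the spread between these libraries. Total estimated counts lay between 51406011 and 81525977 per library, and all 6 genes passed the filter on low counts.

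Neurotrophins are secreted as precursors that proteases cleave to the mature growth factor. BDNF binds the receptor tyrosine kinase TrkB, encoded by *Ntrk2*, and NT-3, the product of *Ntf3*, binds mainly TrkC, encoded by *Ntrk3*. Both receptors signal through ERK, PI3K-AKT and phospholipase C-gamma. The uncleaved precursors bind p75 together with sortilin, and sortilin also sorts BDNF into secretory vesicles. In the hippocampus, BDNF is best known for its part in synaptic plasticity and memory, and NT-3 RNA is known from dentate granule cells and CA2.

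None of the 6 genes was called at 1 h after SOR. A call needed an adjusted p under 0.05 in edgeR's quasi-likelihood test (meant wherever edgeR is named without another test) over 22018 genes and a fold change above 1.4, a rule that 38 genes met (0.173%). At an adjusted p under 0.05 alone, 0 of the 6 passed in edgeR, beside 68 of all genes (0.309%). *Ntf3* alone of the 6 was under that value in DESeq2, edgeR's likelihood ratio test and limma-voom, beside 2.45%, 0.972% and 0.286% of all genes each tested. *Ntf3* stood nearest to the threshold, at 28.0% less RNA after SOR and an adjusted p of 0.051. At an unadjusted p under 0.05 there were 3 of the 6 (*Ntf3* lower, *Bdnf* and *Ntrk2* higher), where 10.1% of all genes tested were under that value. In 2 of the 6, *Ntf3* and *Ntrk2*, the homecage and SOR libraries did not overlap, which held for 6.94% of all genes.

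Promoter sequences were available for 4 of the 6 genes in RefSeq's GRCm38.p6 annotation, as 11 windows reaching from 250 bases before to 50 bases after a start site. *Bdnf* had 7 of them, since its transcripts begin at several alternative first exons, *Ntf3* had 2, and *Ntrk2* and *Ngfr* had 1 each. The 250 bases before 1 start of each of the 3 genes under an unadjusted p of 0.05 are printed here, on the strand of the gene. The capitals in the *Bdnf* sequence mark TCACGTCA, a variant of the cAMP response element. The *Bdnf* stretch is chr2:109692186-109692435 on the plus strand, the *Ntf3* stretch chr6:126164961-126165210 on the minus strand, and the *Ntrk2* stretch chr13:58806319-58806568 on the plus strand.
Bdnf, start 3: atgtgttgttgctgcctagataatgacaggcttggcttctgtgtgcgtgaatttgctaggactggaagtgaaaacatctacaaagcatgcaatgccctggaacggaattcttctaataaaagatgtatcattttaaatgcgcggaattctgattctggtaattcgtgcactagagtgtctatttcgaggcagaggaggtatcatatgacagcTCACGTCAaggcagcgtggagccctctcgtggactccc
Ntf3, start 2: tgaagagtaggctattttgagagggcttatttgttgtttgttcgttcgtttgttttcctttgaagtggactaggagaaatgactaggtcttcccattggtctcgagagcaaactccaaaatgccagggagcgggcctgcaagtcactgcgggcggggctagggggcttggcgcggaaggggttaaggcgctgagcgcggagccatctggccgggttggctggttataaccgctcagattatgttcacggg
Ntrk2, start 1: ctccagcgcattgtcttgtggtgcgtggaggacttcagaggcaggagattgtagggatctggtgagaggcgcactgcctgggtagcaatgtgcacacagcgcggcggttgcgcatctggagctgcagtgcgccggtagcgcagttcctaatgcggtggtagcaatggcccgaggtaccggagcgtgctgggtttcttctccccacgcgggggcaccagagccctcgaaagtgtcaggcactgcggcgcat

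Motifs were searched as exact letters on both strands of the 300-base windows. The full cAMP response element TGACGTCA, bound by CREB, was in 0 of the 11 windows and in 1.79% of 32851 promoter windows of all genes. The variant TCACGTCA was in 1 of the 11, the *Bdnf* window shown, 38 bases before the start, and in 0.441% of all windows. That element was put on the search list because an element of this kind is known from *Bdnf*, so its presence is no finding. The half-site TGACG was in the same window, on the minus strand and overlapping the same letters, and in 20.8% of all windows. The EGR site GCGTGGGCG and the NR4A site AAAGGTCA were in 0 of the 11, against 0.612% and 1.51% of all windows. The E-box CACGTG was in 1, the *Ntf3* window of start 1 at 231 bases before the start, against 7.15% of all. The gene-level counts do not separate transcripts by their start, so no value in the following paragraphs belongs to a single promoter.

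*Ntf3* (ENSMUSG00000049107, chr6:126101412-126166910, minus strand) encodes NT-3. Its level in CPM, a gene's counts relative to the total of its library after scaling with upper-quartile factors, was 8.67, 8.65, 9.05 and 8.81 in homecage replicates 1 to 4 and 6.00, 6.99, 6.16 and 6.17 in SOR replicates 1 to 4. All 4 SOR libraries were below all 4 homecage libraries, and SOR replicate 2 was the highest of its group. The means were 8.79 ± 0.185 and 6.33 ± 0.448 (SD, n = 4 each). The log2 fold change was -0.47 (SE 0.0832, 95% interval -0.66 to -0.29), a fold of 0.72 against the 0.714 that the call asks of a lower gene. The quasi-likelihood p was 0.00016, rank 69 of the genes tested, and the Benjamini-Hochberg adjusted p 0.051. An exact two-sided permutation test of 4 against 4 libraries gave p = 0.0286, the smallest value its 70 assignments can give. The gene had 314 to 702 estimated counts per library. No exon bases are shared with another annotated gene.

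The adjusted p of *Ntf3* lay on either side of 0.05 with the model, while its log2 fold change stayed between -0.48 and -0.45 over 13 other models or scalings. It was under 0.05 in 7 of the 13, with the lowest value, 1.87e-05, from DESeq2 and the highest, 0.21, from edgeR's quasi-likelihood test with replicate number as a block. Without any 1 library, the adjusted p from edgeR was between 0.0601 and 0.175 and passed in 0 of 8 fits. In no fit of either kind were both the adjusted p and the fold past the call thresholds.

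**Figure D1:**
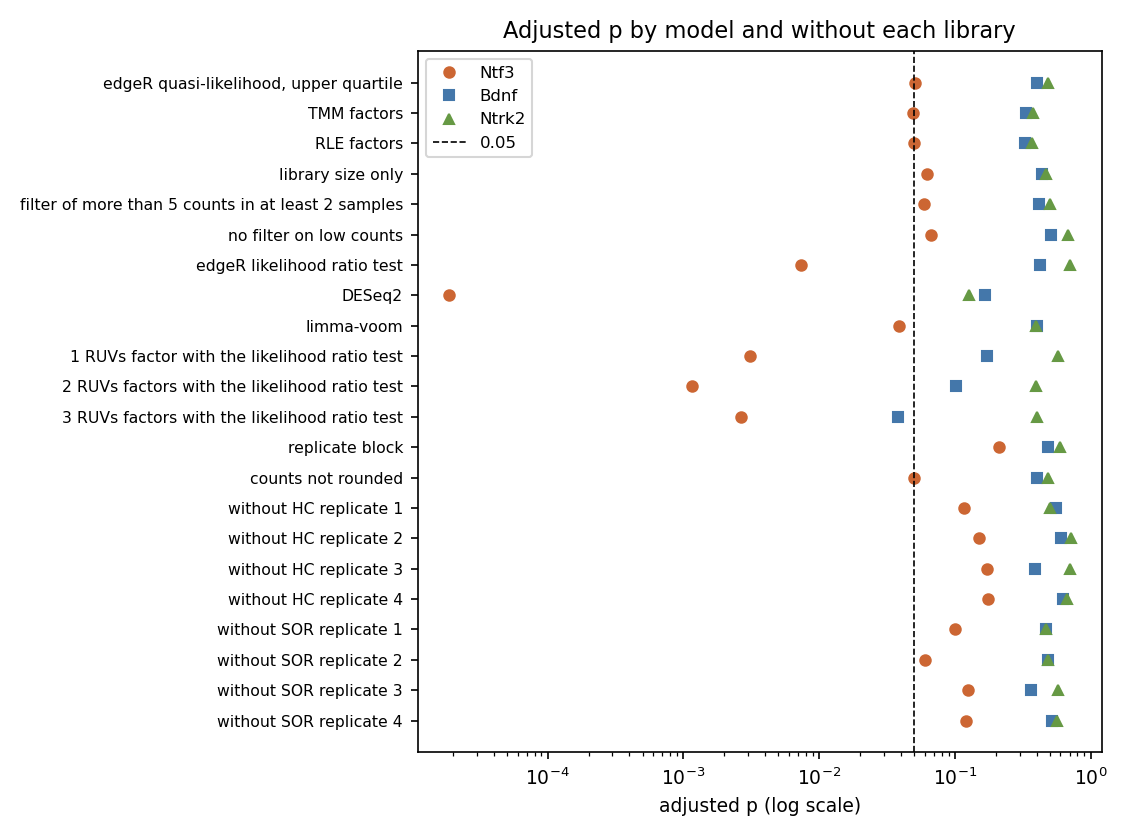
Benjamini-Hochberg adjusted p (log axis) of Ntf3, Bdnf and Ntrk2 under the main test (top row), 13 other models or scalings and 8 fits that each leave out 1 library, with a dashed line at 0.05. The Ntf3 points lie on both sides of the line, from 1.87e-05 to 0.21, Bdnf is left of it in 1 fit, and Ntrk2 in none.

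In bulk tissue, fewer cells of a type and less RNA per cell cannot be told apart, so the summed levels of marker genes are given beside *Ntf3*. The 6 dentate granule cell markers (*Prox1*, *Dsp*, *C1ql2*, *Tdo2*, *Lct* and *Pdzd2*) summed to 341.6 to 397.7 CPM in homecage and 332.6 to 386.5 CPM in SOR libraries, with a median log2 fold change of -0.08. The 6 CA2 markers (*Amigo2*, *Rgs14*, *Map3k15*, *Cacng5*, *Pcp4* and *Sostdc1*) summed to 178.3 to 190.7 CPM and 174.8 to 195.8 CPM, with a median of -0.01. *Sostdc1*, with means of 4.64 CPM in homecage and 9.15 CPM in SOR, was also listed as a choroid plexus marker. The highest CA2 sum was in SOR replicate 1, which also had the highest sum of choroid plexus markers, 3999 CPM. The part of that tissue in the CA2 sum was not tested. The groups overlapped in both sums, and 0 of the 12 markers had an adjusted p under 0.05 in edgeR, DESeq2 or limma-voom. At an unadjusted p under 0.05 in edgeR there were 2 of the 12, against 10.1% of all genes. They were *Lct*, with a log2 fold change of 0.16, and *Pcp4*, with -0.13. A negative log2 fold change was found in 4 of the 6 dentate granule cell markers and in 3 of the 6 CA2 markers. For *Pcp4*, every SOR library was below every homecage library. All 8 mature oligodendrocyte markers had a negative log2 fold change (median -0.19). In edgeR, 3 of 8 were under an unadjusted p of 0.05, against 10.1% of all genes, and 0 of 8 under an adjusted one. *Opalin*, 1 of 8, was under an adjusted one in DESeq2 and the likelihood ratio test, against 2.45% and 0.972% of all genes. Their sums overlapped, at 5428 to 5916 CPM in homecage and 4436 to 5827 CPM in SOR libraries, and the part of these cells in the *Ntf3* values was not tested.

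*Bdnf* (ENSMUSG00000048482, chr2:109674700-109727007, plus strand) was at 49.1, 56.4, 60.0 and 55.6 CPM in homecage replicates 1 to 4 and at 61.3, 61.9, 58.9 and 66.5 CPM in SOR replicates 1 to 4. The groups overlapped, since SOR replicate 3 lay below homecage replicate 3, and 3 SOR libraries were above every homecage library. The means were 55.3 ± 4.54 and 62.2 ± 3.20 CPM (SD, n = 4 each), and the log2 fold change was 0.17 (SE 0.0626, 95% interval 0.03 to 0.31). The edgeR p was 0.0218 and the adjusted p 0.40, and the exact two-sided permutation p was 0.0571. The interval reached from a fold of 1.02 to 1.24 and so did not include 1.4. *Bdnf* shares 896 exon bases with the antisense gene *Gm45346*, which had 6.97 to 35.6 counts per library beside 2703 to 4556 for *Bdnf*. Whether counting used the strand is not stated, so reads from those bases cannot be assigned to 1 of the 2 genes with certainty.

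Measured against each other within a library, the ligands separated the groups, as *Ntf3* did alone. There were 17.6, 15.3, 15.1 and 15.8 *Ntf3* counts per 100 *Bdnf* counts in homecage replicates 1 to 4 and 9.80, 11.3, 10.5 and 9.28 in SOR replicates 1 to 4. The means were 15.97 ± 1.15 and 10.2 ± 0.873 (SD, n = 4 each), with an exact two-sided permutation p of 0.0286, the smallest that the test allows. This ratio does not depend on library scaling. It was chosen after the values of both genes had been seen, so its p is no separate test, and gene lengths do not enter it.

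**Figure D2:**
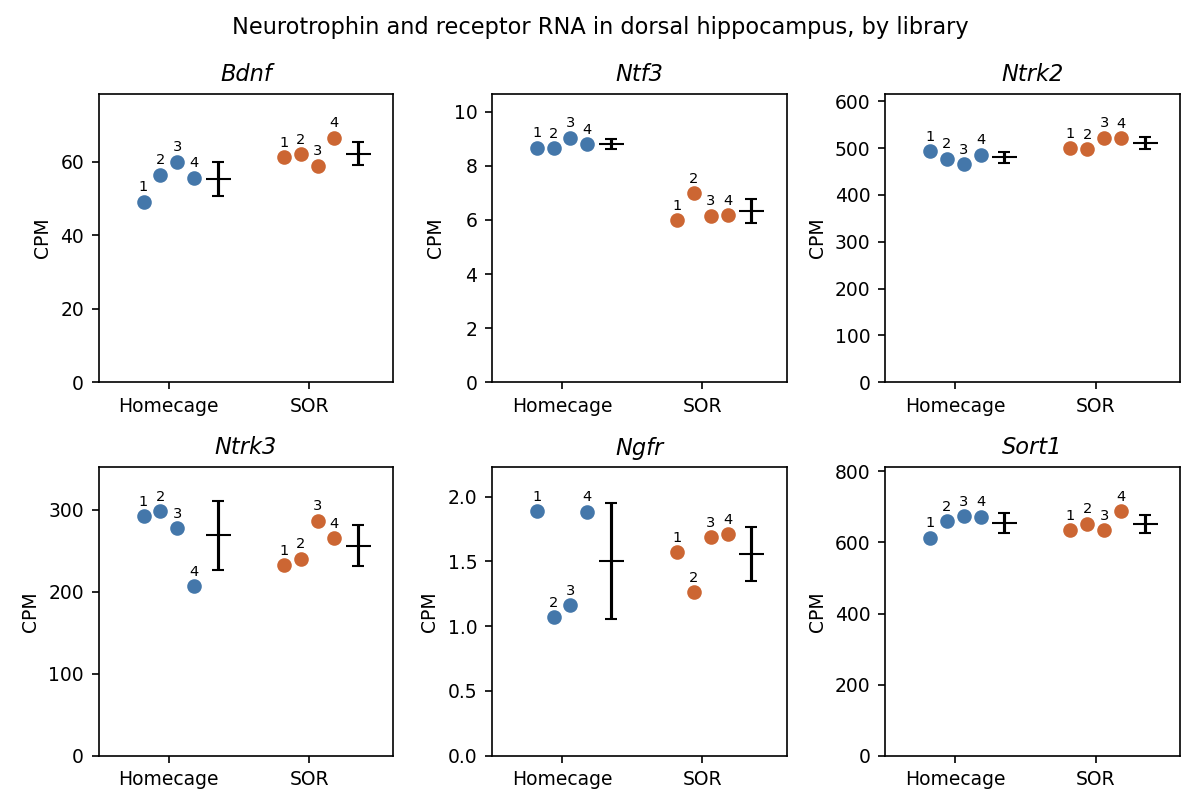
Level of each gene in CPM (linear axes from 0) in the 4 homecage (blue) and 4 SOR (orange) libraries, numbered by replicate, with black bars for the mean ± SD. Ntf3 is the gene with a visible gap between groups, at 8.65 to 9.05 CPM in homecage and 6.00 to 6.99 CPM in SOR.

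*Ntf5*, the gene of NT-4, which also binds TrkB, was low, with 2.91 to 50.7 counts per library. Its level was 0.254, 0.197, 0.428 and 0.351 CPM in homecage replicates 1 to 4 and 0.686, 0.288, 0.415 and 0.0589 CPM in SOR replicates 1 to 4, and the SOR libraries held both the highest and the lowest value. The log2 fold change was 0.28 with a 95% interval from -0.87 to 1.43 (adjusted p = 0.90 in edgeR). That interval includes the log2 fold change measured for *Ntf3*, -0.47, so a difference of that size was neither shown nor excluded in *Ntf5*.

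*Ntrk2* (ENSMUSG00000055254, chr13:58806569-59133970, plus strand) encodes TrkB, in full-length form in neurons and in a truncated form known from astrocytes. Its level was 493.2, 477.2, 465.1 and 485.9 CPM in homecage replicates 1 to 4 and 500.2, 498.2, 522.7 and 520.9 CPM in SOR replicates 1 to 4. All 4 SOR libraries were above all 4 homecage libraries, though the gap from homecage replicate 1 to SOR replicate 2 was small. The means were 480.4 ± 12.1 and 510.5 ± 13.1 CPM (SD, n = 4 each), a difference of 6.28% of the homecage mean that did not pass the test. The log2 fold change was 0.09 (SE 0.0385, 95% interval 0.0025 to 0.17), and the adjusted p 0.48 in edgeR. The exact two-sided permutation p was 0.0286, again the smallest possible. The summed level of 8 astrocyte markers overlapped between the groups, at 4355 to 4566 CPM in homecage and 4319 to 4673 CPM in SOR libraries. *Slc1a2* made up much of that sum, with means of 2354 and 2404 CPM. Of the 8 markers, 5 had a positive and 3 a negative log2 fold change (median 0.02). *Gjb6* was higher without overlap between the groups (log2 fold change 0.43, adjusted p = 0.17 in edgeR). The part of astrocytes in the *Ntrk2* values was not tested.

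*Ntrk3* (ENSMUSG00000059146, chr7:78175959-78738012, minus strand) encodes TrkC, the receptor of NT-3. Homecage replicates 1 to 4 were at 292.6, 298.6, 277.8 and 206.5 CPM and SOR replicates 1 to 4 at 232.3, 240.4, 287.0 and 265.7 CPM. Homecage replicate 4 was the lowest of all 8 libraries, and the other 3 homecage libraries lay among or above the SOR libraries. The log2 fold change was -0.07 (SE 0.11, 95% interval -0.31 to 0.17) and the adjusted p 0.88 in edgeR. Without any 1 library it lay between -0.01 (without homecage replicate 2, adjusted p 0.99) and -0.18 (without homecage replicate 4, adjusted p 0.60). The homecage coefficient of variation, 15.8%, was wider than the 2.52% of *Ntrk2* in the same libraries.

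The counts of *Ntrk3* per 100 counts of *Ntrk2* were 59.3, 62.6, 59.7 and 42.5 in homecage replicates 1 to 4 and 46.4, 48.2, 54.9 and 51.01 in SOR replicates 1 to 4. Except for homecage replicate 4, which was again the lowest library, the homecage ratios were above the SOR ratios. The exact two-sided permutation p over all 8 libraries was 0.34. The ratio was chosen after the levels had been seen. Both genes have truncated and full-length transcripts that gene-level counts add together.

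*Ngfr* (ENSMUSG00000000120, chr11:95568818-95587735, minus strand) encodes p75, the receptor that all neurotrophins bind. It was at 1.89, 1.07, 1.16 and 1.88 CPM in homecage replicates 1 to 4 and at 1.57, 1.26, 1.69 and 1.71 CPM in SOR replicates 1 to 4. The SOR libraries lay inside the homecage range, and homecage replicates 1 and 4 were above the other 2. The log2 fold change was 0.05 (SE 0.215, 95% interval -0.42 to 0.53), with an adjusted p of 0.96 in edgeR. With 64.9 to 150.3 counts per library, the interval spans folds from 0.746 to 1.44, the widest of the 6 genes.

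Homecage replicates 1 and 4 were also the homecage libraries with the highest summed level of 6 choroid plexus markers, at 1096 and 885.3 CPM against 26.1 and 66.0 CPM in replicates 2 and 3. The SOR libraries had 3999, 885.9, 797.4 and 42.3 CPM of the same markers, and SOR replicate 4, with the lowest sum, had the highest *Ngfr* level of its group. All 6 choroid plexus markers had a positive log2 fold change, with 0 under an adjusted or an unadjusted p of 0.05 in edgeR, DESeq2 and limma-voom, and the part of that tissue in the *Ngfr* values was not tested. The basal forebrain is known for cholinergic neurons whose cell bodies carry much *Ngfr* RNA, and 4 of their markers were summed too. The sum was 3.23, 1.01, 0.785 and 1.28 CPM in homecage replicates 1 to 4, highest in replicates 1 and 4 as for *Ngfr*. In SOR replicates 1 to 4 it was 0.672, 1.95, 1.92 and 0.687 CPM. There the order differed: SOR replicate 2 had the highest sum and the lowest *Ngfr* level, and SOR replicate 4 had the highest *Ngfr* level. The defining markers *Chat* and *Slc18a3* were too low to test, at 0.0845 and 0.0619 CPM in the homecage and 0.0845 and 0.0259 CPM in the SOR mean. *Slc5a7* was at 0.711 and 0.857 CPM and *Isl1* at 0.72 and 0.338 CPM, with log2 fold changes of 0.27 and -1.07 and adjusted p of 0.80 and 0.77 in edgeR. The part of these cells in the *Ngfr* values was not tested.

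*Sort1* (ENSMUSG00000068747, chr3:108284082-108361511, plus strand) was at 613.1, 659.3, 674.2 and 672.1 CPM in homecage replicates 1 to 4 and at 634.0, 652.9, 634.3 and 688.4 CPM in SOR replicates 1 to 4. The groups covered nearly the same range. The log2 fold change was -0.01 (SE 0.0464, 95% interval -0.11 to 0.10) and the adjusted p 0.99 in edgeR. Folds outside 0.928 to 1.07 lay beyond the interval, which makes *Sort1* the member with the second narrowest interval after *Ntrk2*. Its sign turned with the scaling of the libraries, to 0.02 with TMM factors. *Sort1* shares 338 exon bases with the antisense gene *Gm12523*, which had at most 2.18 counts per library.

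**Figure D3:**
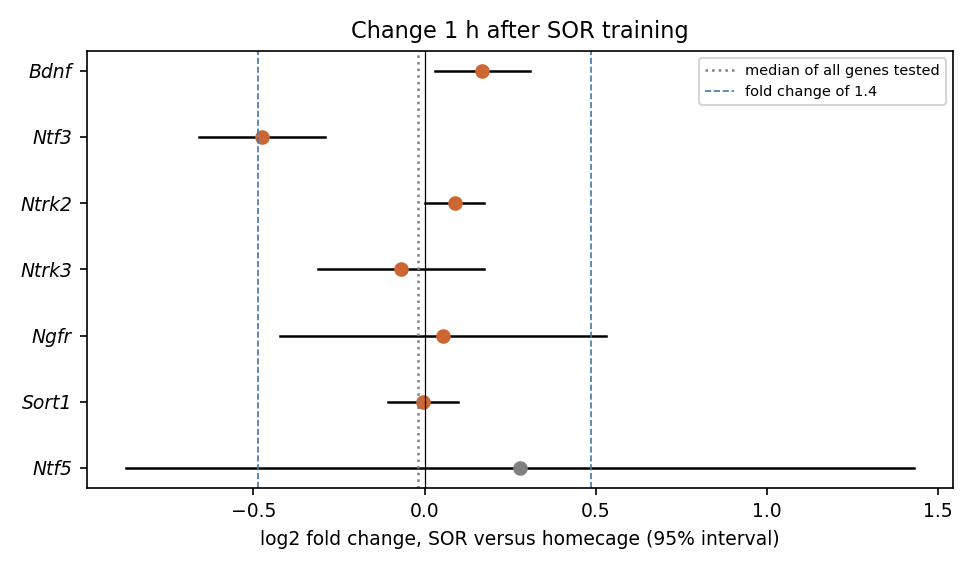
Log2 fold change of SOR over homecage (points) with its 95% interval (lines) for the 6 genes (orange) and for Ntf5 (grey), with a dotted line at the median of all genes tested (-0.02) and dashed lines at a fold of 1.4 in either direction. In this fit, edgeR's quasi-likelihood test on all 8 libraries, the intervals of Ntf3, Bdnf and Ntrk2 leave out 0, and the interval of Ntf3 is the one on the lower side.

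Levels of different genes were compared per length, as CPM divided by the length of the merged exons in kilobases (RPKM). In homecage libraries *Sort1* was the highest at 86.5 ± 3.76 RPKM, followed by *Ntrk2* at 24.9 ± 0.626, *Ntrk3* at 8.91 ± 1.41, *Bdnf* at 8.89 ± 0.73, *Ntf3* at 5.13 ± 0.108 and *Ngfr* at 0.435 ± 0.13 (SD, n = 4 each). Each gene was above the next in 8 of 8 libraries, with the exception of *Ntrk3* and *Bdnf*. *Ntrk3* was above *Bdnf* in 3 of 8 libraries, and these neighbours did not differ beyond their spread. With the longest protein-coding transcript as the length, a choice added after the data were seen, the order was the same and *Ntrk3* was above *Bdnf* in 4 of 8.

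Per length, the homecage mean of TrkB RNA was 2.8 times that of its ligand BDNF, and the mean of TrkC RNA 1.74 times that of NT-3. With the longest coding transcript as the length the ratios were 4.24 and 2.30. Merged exons of *Ntrk2* and *Ntrk3* span 19292 and 30170 bases, against 8744 and 19703 in the longest coding transcripts, so their RPKM are lower than by the latter length, where *Ntrk2* was at 54.9 ± 1.38 and *Bdnf* at 12.96 ± 1.06 (SD, n = 4 each).

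**Figure D4:**
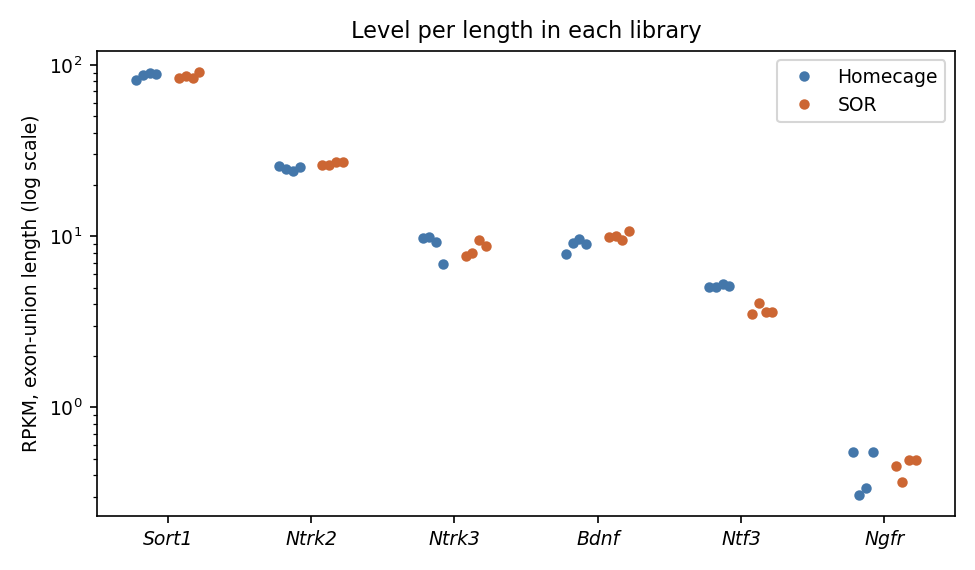
Level per length in RPKM over merged exons (log axis) of each gene in the 4 homecage (blue) and 4 SOR (orange) libraries, ordered by the homecage mean. Sort1 lies between 81.0 and 90.9 RPKM, Ngfr between 0.31 and 0.548 RPKM, and the points of Ntrk3 and Bdnf share a range.

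Around these 6 genes, 128 further genes of the pathway were listed by role, and 123 could be tested. None was called and none had an adjusted p under 0.05 in edgeR, while DESeq2 gave 5 under an adjusted p of 0.05 (*Bhlhe40*, *Vgf*, *Vegfa*, *Rps6ka3* and *Srf*), where it had 2.45% of all genes, edgeR's likelihood ratio test 2 (*Bhlhe40* and *Vegfa*) and limma-voom 0. In edgeR, 20 of 123 had an unadjusted p under 0.05 (16.3%, against 10.1% of all genes) and 10 had groups that did not overlap (8.13%, against 6.94%). A positive log2 fold change was found in 61 of them. Their median was -0.01, and that of all genes tested -0.02. As a reference for training in the same libraries, 9 of 12 immediate early genes were called higher, with a median log2 fold change of 1.10. They were *Arc*, *Egr1*, *Egr2*, *Egr4*, *Fos*, *Fosb*, *Junb*, *Nr4a1* and *Dusp5*.

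*Arc*, which encodes a synaptic protein made in active neurons, was at 91.2, 85.4, 94.1 and 97.0 CPM in homecage replicates 1 to 4 and at 265.8, 217.8, 243.9 and 257.5 CPM in SOR replicates 1 to 4. The groups were far apart, with a log2 fold change of 1.42 (SE 0.0646, adjusted p = 8.27e-06 in edgeR). *Egr2*, the gene of a zinc finger transcription factor, went from a mean of 1.15 to 7.72 CPM (log2 fold change 2.75, adjusted p = 0.000466 in edgeR). The upper bound of the *Bdnf* interval, 0.31, lay below the lower bound for *Arc*, 1.28, the gene of rank 1 by p. In the reference list, the intervals of the 9 called genes lay above that of *Bdnf*. Those of *Egr3* (0.12 to 0.51) and *Ier2* (-0.19 to 0.38) overlapped it, and that of *Npas4* (-0.99 to 0.0048) lay below it.

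Among the 11 tested genes that process or sort proneurotrophins, *Plat* and *Pcsk1* had the lowest p. *Plat* encodes tissue plasminogen activator, the protease that makes plasmin, and was at 27.0 to 32.8 CPM in homecage and 33.7 to 39.9 CPM in SOR libraries, so that the groups did not overlap. Its log2 fold change was 0.23 and its adjusted p 0.33 in edgeR. *Pcsk1*, a prohormone convertase of the regulated secretory pathway, had a log2 fold change of 0.24 and an adjusted p of 0.43. Of this list 4 genes had a positive and 7 a negative log2 fold change. The 4 relatives of sortilin had log2 fold changes from -0.12 for *Sorcs1* (95% interval -0.43 to 0.19) to 0.03 for *Sorl1* (-0.08 to 0.14), with adjusted p of 0.83 and 0.88.

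In the 23 genes of Trk adaptors and regulators, 12 had a positive and 11 a negative log2 fold change. *Slitrk5*, a membrane protein that binds TrkB, was at 117.4 to 130.4 CPM in homecage and 108.1 to 116.7 CPM in SOR libraries, without overlap (log2 fold change -0.14, adjusted p = 0.31 in edgeR). *Crkl*, an adaptor protein, had 0.26 and an adjusted p of 0.34. Of the 20 genes of the ERK arm, *Rps6ka3*, the kinase RSK2, had the lowest p, with a log2 fold change of 0.22, groups that did not overlap and an adjusted p of 0.23, and *Araf* followed with -0.09 and 0.51. In the PI3K-AKT arm of 13 genes, *Pik3ca* and *Mtor* were nearest to the threshold, with log2 fold changes of 0.09 and 0.12 and adjusted p of 0.48 and 0.50. The medians of these 3 lists were 0.00, -0.02 and -0.04.

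Among the 19 genes of p75 coreceptors and effectors, *Bex1*, which encodes an adaptor of p75, had a log2 fold change of -0.21 (adjusted p = 0.37 in edgeR) and *Adam17*, a protease that sheds membrane receptors, 0.17 (adjusted p = 0.49). Among the 17 regulators of *Bdnf* transcription, 11 had a positive log2 fold change. *Bhlhe40*, a transcriptional repressor, had 0.33 with an adjusted p of 0.17, and *Srf*, the serum response factor, 0.19 with an adjusted p of 0.28. *Npas4*, an activity-dependent transcription factor that binds *Bdnf* promoters, was at 2.25 to 4.96 CPM in homecage and 2.06 to 3.02 CPM in SOR libraries (log2 fold change -0.49, adjusted p = 0.50 in edgeR). The *Npas4* groups overlapped, and it is the immediate early gene with a negative value in the reference list of 12.

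Of the 14 other neurotrophic factors tested, 3 were higher and 1 lower without overlap between the groups, where 6.94% of all genes had none, and 0 of the 14 passed the test in edgeR. *Vgf*, a secreted neuropeptide precursor, was at 23.7 to 25.9 CPM in homecage and 27.2 to 33.4 CPM in SOR libraries (log2 fold change 0.29, adjusted p = 0.18 in edgeR). *Vegfa*, the vascular growth factor, was at 20.5 to 30.0 CPM and 32.6 to 39.8 CPM, and its log2 fold change was 0.43 and its adjusted p 0.21. *Artn* and *Manf* were the other genes of this list without overlap, at log2 fold changes of -1.36 and 0.68 and adjusted p of 0.28 and 0.27. *Manf* was at 76.8 CPM in SOR replicate 1, the library with most choroid plexus marker RNA, and at 37.1 to 41.9 CPM in the other 3. SOR replicate 4, with the lowest marker sum of its group, was at 41.9 CPM. Homecage replicates 1 and 4, with marker sums of 1096 and 885.3 CPM, had the highest and the lowest homecage level, 34.3 and 27.8 CPM. The part of that tissue in the *Manf* values was not tested. Without SOR replicate 1 the log2 fold change of *Manf* was 0.38 (adjusted p = 0.13 in edgeR). *Artn* was under 1 CPM in all 8 libraries.

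**Figure D5:**
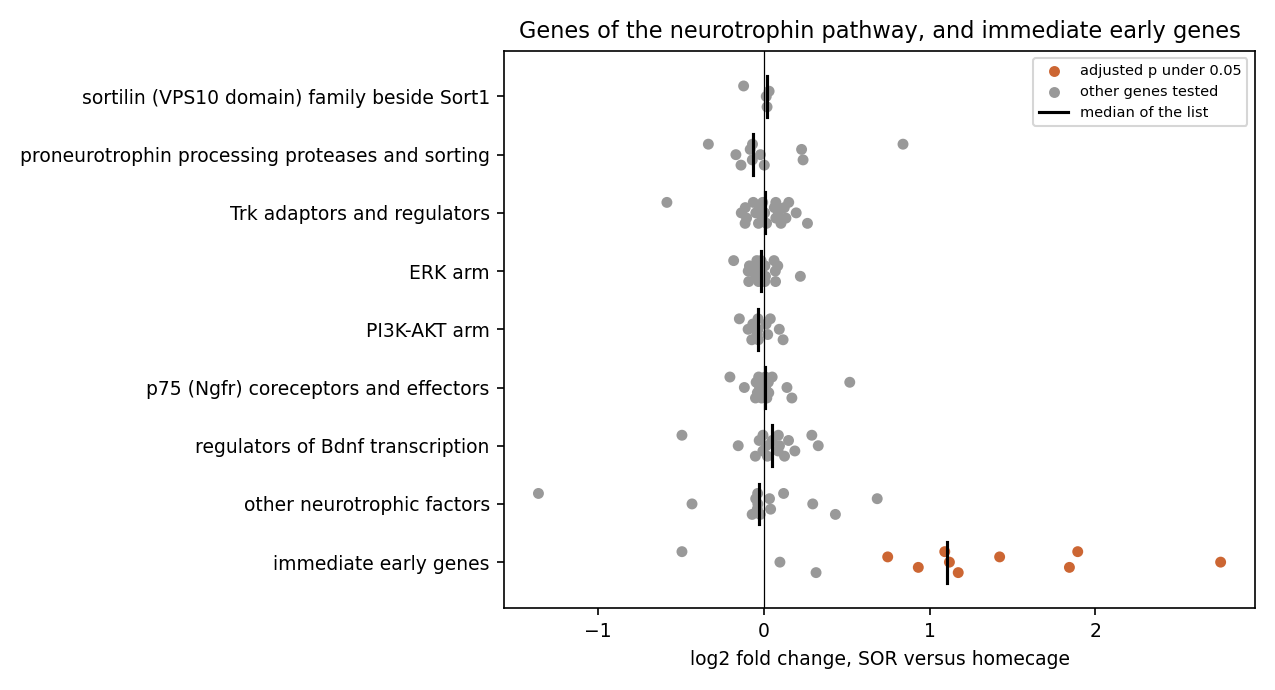
Log2 fold change of SOR over homecage for each tested gene of 8 neurotrophin pathway lists and of the immediate early gene list, with a black line at each list's median and orange points for an adjusted p under 0.05. The 9 orange points are all immediate early genes, and the medians of the pathway lists lie between -0.07 and 0.05.

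The genes most like each member over the 8 libraries were ranked by Pearson's r of log2 CPM among 16322 genes, as a description only, since the highest of so many values is high by selection and the libraries share their scaling and their groups. For *Ntf3* they were *Fbxo32* (r = 0.99), a ubiquitin ligase gene, *Kcns2* (0.99), a potassium channel subunit gene, and *Ndufs1* (0.99), a gene of respiratory complex I. For *Bdnf* they were *Chek2*, *Arsj* and *Atf6b* (all 0.97), and for *Ntrk2* *Plekha8* (0.99), *Cdkn1a* (0.98) and *Fam43a* (0.96). *Ntrk3* was most like *B4galt7* (0.97), *Gls2* (0.97) and *Gm37746* (0.96). *Ngfr*, the member with the fewest counts, had the lowest values, with *4930431F10Rik* (0.93) and *Rras* (0.91) among its top 3. *Sort1* was most like *Rbfox1*, *Elk1* and *Camk2b* (all 0.97). No member was among the top 3 of another.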

How the data were processed

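RNA from dorsal hippocampus of 4 homecage and 4 SOR mice was sequenced as 150-bp pairs. The series holds 34 samples, and its spatial, single-nucleus and chromatin libraries were not analysed here. The methods name a total RNA kit with removal of ribosomal RNA, the labels polyA RNA. The expected counts (estimated counts per gene) were deposited by the authors as a tximport summary without normalization. The quantifier, its settings and use of strand are not given in the sources used here. The methods name STAR and featureCounts.

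Counts were rounded (52.6% of values were not whole). GENCODE M21 (GRCm38, the mm10 build of the submitters' processing notes) gave symbols and positions for 54409 of 54532 genes. Genes were filtered with filterByExpr, scaled by upper-quartile factors and tested with edgeR 4.0.16 (quasi-likelihood F test, R 4.3.3, 4 SOR against 4 homecage, no covariates). Benjamini-Hochberg adjusted p covered 22018 genes. SE and 95% intervals came from the log2 fold change, the F statistic and its degrees of freedom. The authors scaled by upper quartile, removed factors with RUVs and used edgeR, but the number of factors is not given, so 1 to 3 factors were alternatives, in a separate implementation of RUVs. Further alternatives were scaling with TMM, RLE or library size, other filters, the likelihood ratio test, DESeq2 1.42.0, limma-voom 3.58.1, a replicate block, unrounded counts and leaving out each library. Two-sided exact permutation tests used log2 CPM. The code was tested on simulated data.

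Named genes were the 6 members, listed pathway genes that were called, the lowest-p pair of each list, *Ntf5* and *Arc*, and the top 3 genes by likeness. *Npas4*, *Egr3*, *Ier2*, *Artn* and *Manf* were named after their values were seen. Some genes are not reported here. Members, lists and tests were chosen with earlier results of these data known.

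Over 18 marker lists, the summed level overlapped between the groups in each. Some lists had 1 sign throughout, where 43.8% of all genes tested had a positive log2 fold change. The 8 mature oligodendrocyte markers were negative. The 6 choroid plexus, 6 meningeal fibroblast and 5 red blood cell markers were positive, the last 2 lists with medians of 0.21 and 0.37. Red blood cell sums were 98.6 to 126.7 CPM in homecage and 115.1 to 184.4 CPM in SOR libraries. Of 103 marker genes tested, 15 had an unadjusted and 0 an adjusted p under 0.05 in edgeR, against 10.1% and 0.309% of all genes. Under the adjusted p there were 4 in DESeq2, 3 in edgeR's likelihood ratio test and 0 in limma-voom, against 2.45%, 0.972% and 0.286% of all genes.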

Additional observations from a re-analysis of the deposited data

Results flagged for a closer look

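The *Ntf3* level of SOR replicate 2, 6.99 CPM, lay apart from the other 3 SOR libraries (6.00 to 6.17 CPM): its gap to the nearest took 0.8293 of the range of the group, just above Dixon's critical value for 4 samples. Of 16 groups examined this was the only such value, and chance alone marks about 1 group in 20. The library was still below all 4 homecage libraries, and without it the log2 fold change of *Ntf3* was -0.53 with an adjusted p of 0.0601 in edgeR.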

How the results depend on the processing

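*Ntf3* kept a negative log2 fold change in every alternative run. Its adjusted p passed 0.05 with TMM factors (log2 fold change -0.46, adjusted p 0.0495), the edgeR likelihood ratio test (-0.48, 0.00737), DESeq2 (-0.46, 1.87e-05), limma-voom (-0.48, 0.0389) and, where RUVs factors were added, 1, 2 or 3 of them (-0.48, -0.47 and -0.46, with 0.00308, 0.00115 and 0.00266), but not with RLE factors, library size, other filters or unrounded counts. The cause was not tested. With the replicate block its log2 fold change was -0.48 and its adjusted p 0.21. Samples with the same number did not deviate together (correlations -0.0989 to 0.151, against -0.307 to 0.234 for other pairs). So few pairs cannot show whether samples were paired or batched by number. Without any 1 library *Ntf3* lay between -0.53 and -0.45. *Bdnf* passed only with 3 RUVs factors (0.18, adjusted p 0.0379) and was 0.12 to 0.21 without any 1 library. *Ntrk2* and *Ntrk3* passed 0.05 in 0 of the 21 alternatives each, and *Ntrk3* was -0.18 to -0.01 without any 1 library. *Sort1* turned positive with TMM (0.015), RLE (0.0163), library size (0.0011) and DESeq2 (0.0163), and was -0.035 to 0.01 without any 1 library. *Ngfr* was -0.0799 to 0.1864 without any 1 library.

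The number of genes called over the table, 38, was 68 at an adjusted p alone, 105 with the likelihood ratio test, 114 with DESeq2 and 131, 190 and 204 with 1, 2 and 3 RUVs factors. Without homecage replicate 2 it was 22 and without homecage replicate 4 it was 25. Pathway genes called were 2 (*Artn* and *Manf*) in each RUVs fit. *Ntf5* had few counts (2.91 to 50.7 per library), and the part of depth in its wide interval was not tested.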
